A study of Homo sapiens with 4 samples.

Results

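The kinesin motors were examined in 2 human anaplastic thyroid cancer (ATC) lines and in the paclitaxel-resistant cells derived from them. The members are the genes whose symbol is KIF followed by a number and, in most, a letter, antisense genes left out, which gave 39 of the 26485 gene names in the deposited tables. SW1736 and 8505C are established ATC lines, and SW1736-PTX and 8505C-PTX were obtained from them by 6 months of paclitaxel raised from 1 nM to 1.5 µM, after which the resistant cells stayed in 1.5 µM paclitaxel. Wild-type (wt) cells were grown in the same medium without the drug. No transgene or other agent is named for these libraries, and whether the PTX cells were a clone or a mixed population is not given in the sources used here. Long exposure and the presence of paclitaxel at harvest cannot be told apart in this design.

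Kinesins are ATPases that walk along microtubules or, in a few subfamilies, take tubulin off microtubule ends. A set of them builds the mitotic spindle, moves chromosomes and completes cytokinesis, and their transcripts are known to peak in G2 and M phase. Others carry vesicles, organelles, mRNA and ciliary cargo between divisions. Paclitaxel binds the same microtubule polymer along which these motors move.

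Each of the 4 conditions was sequenced once, so no p-value and no SD is given within a line, and every difference below compares a pair of libraries, not a pair of conditions with their spread. Depth lay between 43.5 and 57.9 M reads, both PTX libraries being deeper than their wt library, and 0 of 73 ribosomal protein gene names were listed at 0 in any library. Values are FPKM, the aligned fragments scaled to transcript length and library depth, so that levels of different genes can be set side by side. A gene entered a comparison if either library of the pair exceeded 0.5 FPKM, and it was called up- or down-regulated when log2((PTX + 0.1)/(wt + 0.1)) was beyond 1.5 in either direction. Adding 0.1 understates the change of genes with a low FPKM.

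The library labelled SW1736-PTX stood apart from its label and this touches every SW1736 result. Across 14692 genes its log2 FPKM correlated with 8505C wt at r = 0.873 and with 8505C-PTX at r = 0.933, against 0.767 with SW1736 wt (Pearson, across genes, which are not independent replicates). The thyroid follicular markers TG, TSHR, SLC5A5 and DIO1 were below 0.1 FPKM in each library. The thyroid transcription factor PAX8 was 38.2 FPKM in SW1736 wt and between 0.123 and 0.206 in the other 3 libraries, while NKX2-1 was listed at 0 in SW1736 wt and lay between 30.5 and 39.0 in the others. FOXE1 was 26.6 in SW1736 wt and at most 0.511 elsewhere. CDH5, an endothelial cadherin, separated 8505C wt (55.9) from 8505C-PTX (4.53), SW1736-PTX (0.225) and SW1736 wt (0), and the myeloid marker CD68 was 5.84 in SW1736 wt and between 21.7 and 43.0 in the others. Another myeloid marker, CD14, did not follow CD68, with 0.894, 0.707, 0.576 and 4.50 FPKM in SW1736 wt, SW1736-PTX, 8505C wt and 8505C-PTX. The leukocyte markers PTPRC and CD3E were at most 0.0197 FPKM in each library, and the part of these genes in the kinesin results was not tested. Counts, medians and called members of the library labelled SW1736-PTX are therefore given against SW1736 wt and again against 8505C wt. The latter comparison shares 8505C wt with the 8505C pair, so these are not independent.

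Kinesin transcripts were abundant in both wt lines and less so in both PTX libraries. In SW1736 the summed FPKM of the 39 members was 605 for wt and 372 for PTX cells, and in 8505C it was 611 and 334. Of the 39 members, 28 were above 0.5 FPKM in each wt library and 30 in each PTX library. Members above 10 FPKM numbered 16, 11, 15 and 11 in SW1736 wt, SW1736-PTX, 8505C wt and 8505C-PTX, the order kept from here on. Over all 26485 gene names, 12579, 13430, 12393 and 13420 were above 0.5 FPKM. More names thus passed 0.5 FPKM in the deeper PTX libraries among all genes as well as among kinesins. Names above 10 FPKM were not counted for all genes. The 12 members listed here under roles in the spindle, on chromosomes or in cytokinesis are called mitotic kinesins. KIF2A, a depolymerase that also acts in interphase, is counted with the other members. The mitotic kinesins held 62.7% of the family's FPKM in SW1736 wt and 58.5% in 8505C wt, against 44.7% in SW1736-PTX and 42.7% in 8505C-PTX. Their summed level was 379, 166, 358 and 143, that is 2.28-fold lower in SW1736-PTX and 2.51-fold lower in 8505C-PTX, and 2.15-fold lower in SW1736-PTX when set against 8505C wt. The other 27 members summed to 226, 206, 253 and 192, which is 1.10-fold and 1.32-fold lower in the PTX library (1.23-fold for SW1736-PTX against 8505C wt).

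**Figure D1:**
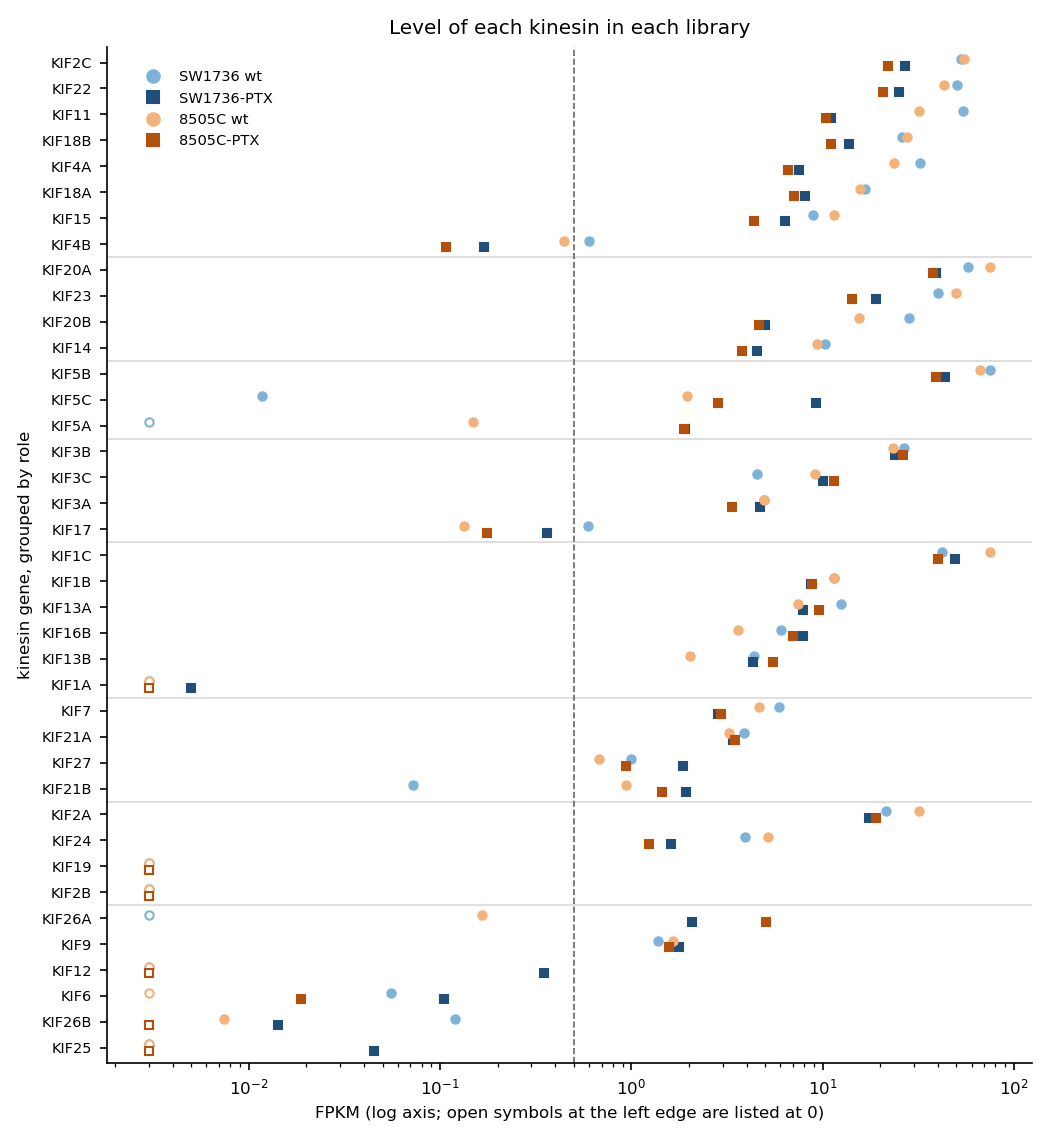
FPKM (log axis) of the 39 kinesins in SW1736 wt, SW1736-PTX, 8505C wt and 8505C-PTX, 1 point per library, grouped by role from spindle motors at the top to less studied members at the bottom. Squares (PTX) lie left of circles (wt) in all rows of the first and second role, open symbols are listed at 0, and the dashed line marks 0.5 FPKM.

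KIF5B, the ubiquitous heavy chain of kinesin-1, had the highest mean level (74.9, 43.8, 66.5 and 39.0 FPKM). It was followed by KIF20A, needed for cytokinesis, at 57.6, 38.9, 74.8 and 37.9, and by KIF1C, a kinesin-3 that carries vesicles, at 42.1, 49.4, 74.6 and 40.0. KIF2C and KIF22 came next. In SW1736 wt the levels of KIF20A (57.6), KIF11 (54.3), KIF2C (53.1) and KIF22 (50.5) lay within a narrow range, and with 1 library their order cannot be separated from error. At the other end, KIF2B and KIF19 were listed at 0 in every library, and KIF1A, KIF6, KIF12, KIF25 and KIF26B stayed below 0.5 FPKM in each. These 7 members entered no comparison. KIF12 reached 0.349 FPKM in SW1736-PTX, about 44.3 reads, and was listed at 0 in the other libraries.

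In SW1736-PTX against SW1736 wt, 32 members were compared, 4 were up-regulated and 3 down-regulated. Over all 14202 genes compared, 15.7% were up-regulated and 10.2% down-regulated. The up-regulated members were KIF5C, KIF26A, KIF5A and KIF21B, and the down-regulated members were KIF20B, KIF11 and KIF4A. In 8505C-PTX against 8505C wt, 30 members were compared, with 2 up-regulated (KIF26A and KIF5A) against 15.0% of 13794 genes, and 5 down-regulated (KIF24, KIF4A, KIF23, KIF20B and KIF11) against 5.89%. When SW1736-PTX was set against 8505C wt, 3 of 30 members were up-regulated (KIF26A, KIF5A and KIF5C; 15.1% of 13824 genes) and 4 down-regulated (KIF4A, KIF24, KIF20B and KIF11; 5.23%). The up-regulated counts rest on few members, and no difference from all genes is read from them. The share of down-regulated kinesins was near that of all genes in the SW1736 pair. It was above that of all genes in the other comparisons, which also rest on few members and have 8505C wt in common.

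KIF26A and KIF5A were up-regulated in both lines and KIF11, KIF20B and KIF4A were down-regulated in both, out of 30 members compared in both. Among all 13304 genes compared in both, 7.37% were up-regulated in both lines and 2.41% were down-regulated in both. No kinesin was called in opposite directions, beside 144 of the 13304 genes, so no difference from all genes is read from this. All 11 mitotic members compared in both lines were below 0 in both, beside 32.7% of all genes. The median log2 fold change of the family was -0.52 in SW1736 and -0.69 in 8505C, beside 0.01 and 0.11 for all genes. Against 8505C wt, the SW1736-PTX library gave -0.60 beside 0.10.

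**Figure D2:**
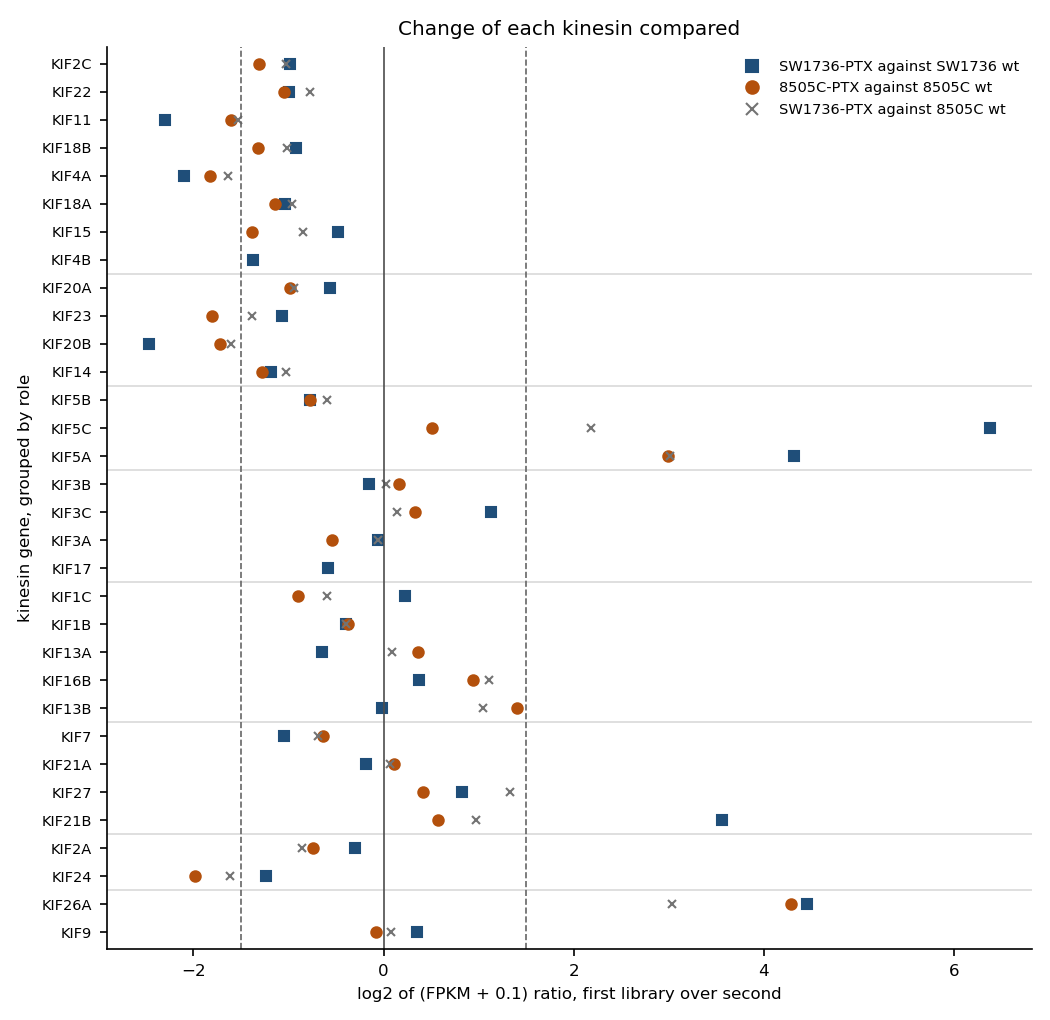
Log2 ratio of (FPKM + 0.1) for each kinesin compared, grouped by role, in SW1736-PTX against SW1736 wt (squares), 8505C-PTX against 8505C wt (circles) and SW1736-PTX against 8505C wt (crosses). Dashed lines mark 1.5 and -1.5; the mitotic kinesins in the upper 12 rows all lie left of 0, and KIF5A and KIF26A lie right of 1.5 in each comparison.

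The mitotic kinesins lay on the low side together. All 12 compared in SW1736 had a log2 fold change below 0 (median -1.06, range -2.47 to -0.48), where 49.7% of all genes did, and 3 of the 12 passed the limit. All 11 compared in 8505C were below 0 as well (median -1.32, range -1.83 to -0.98), where 45.7% of all genes were, and 4 passed the limit. Against 8505C wt, SW1736-PTX gave 11 of 11 below 0 with a median of -1.03 and a range of -1.64 to -0.77 (all genes 45.9%). The other kinesins had medians of -0.04 in SW1736, 0.16 in 8505C and 0.08 against 8505C wt. In bulk RNA, fewer cells in mitosis and less kinesin RNA per cell cannot be told apart.

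KIF11, the plus-end motor that pushes spindle poles apart and the target of several antimitotic inhibitors, was 54.3, 11.0, 32.0 and 10.4 FPKM. It was 4.94-fold lower in SW1736-PTX, 3.07-fold lower in 8505C-PTX and 2.91-fold lower in SW1736-PTX against 8505C wt (log2 fold changes -2.30, -1.61 and -1.53). Both PTX libraries lay below both wt libraries and were close to each other, whereas the wt libraries differed. KIF4A, a chromosome-bound motor that also organizes the central spindle, was 32.4, 7.50, 23.5 and 6.56 FPKM (log2 fold changes -2.10, -1.83 and -1.64). KIF20B, which acts late in cytokinesis, was 28.3, 5.02, 15.5 and 4.64 FPKM (-2.47, -1.72 and -1.61). The same arrangement held for both, with the PTX values close together and the higher wt value in SW1736. Against the authors' limit KIF11 was the member just inside in 8505C, and KIF15 (-1.38) the one just outside.

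KIF23, the motor subunit of centralspindlin at the midzone, was 40.3, 19.1, 49.8 and 14.2 FPKM. It was down-regulated in 8505C-PTX alone by the limit used (-1.80), with -1.07 in SW1736 and -1.38 against 8505C wt, and the difference between the lines was not tested. KIF24, a centriolar depolymerase that restrains cilium formation and is counted here with the other kinesins, was 3.94, 1.61, 5.17 and 1.24 FPKM, and its log2 fold change was -1.24 (SW1736), -1.98 (8505C) and -1.62 (against 8505C wt). With 1 FPKM added in place of 0.1 its 8505C value was -1.47 and it was no longer called there.

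The remaining mitotic members did not pass the limit in either line. KIF14, a midzone motor, was 10.3, 4.51, 9.33 and 3.78 FPKM (-1.18 and -1.28 in SW1736 and 8505C). The kinesin-8 motors of chromosome alignment, KIF18A and KIF18B, were 16.6, 8.04, 15.7 and 7.10 and 26.0, 13.7, 27.7 and 11.0 FPKM. KIF2C, the kinetochore depolymerase MCAK, was 53.1, 26.8, 54.6 and 21.9, and KIF22, a chromosome-arm motor, was 50.5, 25.2, 42.9 and 20.7. In these members each PTX library held the lower value, and the wt libraries lay within 0.24 of each other on the log2 scale. KIF15, which backs up KIF11 in spindle bipolarity, was 8.94, 6.36, 11.5 and 4.37 FPKM, and its log2 fold change was -0.48 in SW1736 beside -1.38 in 8505C. KIF20A had log2 fold changes of -0.56 and -0.98. KIF4B, a 1-exon gene nearly identical to KIF4A, was 0.599, 0.170, 0.446 and 0.107 FPKM, and its reads may in part belong to KIF4A, so its value is uncertain.

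Between the PTX libraries the 11 mitotic members compared differed by -0.53 to -0.04 on the log2 scale (8505C-PTX over SW1736-PTX), and 0 of them were called in either direction, beside 7.79% of all genes. Of all 30 members compared there, 0 were higher (3.70% of genes) and 1 was lower (4.09%), KIF5C. Between the wt libraries the mitotic members ranged from -0.86 (KIF20B) to 0.38 (KIF20A) for 8505C over SW1736, and 0 were called, beside 17.6% of all genes. Of 30 members compared between the wt libraries, KIF5C and KIF21B were higher in 8505C wt (7.73% of genes) and KIF17 was lower (9.92%).

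Proliferation markers lay on the same side as the mitotic kinesins. All 20 proliferation markers examined had log2 fold changes below 0 in both lines, beside 32.7% of all genes compared in both. In SW1736-PTX 9 were down-regulated (10.2% of all genes) and in 8505C-PTX 15 (5.89%), with medians of -1.44 and -1.82. Against 8505C wt, 11 were down-regulated in SW1736-PTX (5.23% of all genes) and 20 were below 0 (45.9%), with a median of -1.57. MKI67, the Ki-67 antigen, was 110, 19.9, 62.8 and 18.0 FPKM, and TOP2A, a topoisomerase of G2 and M phase, was 90.5, 71.6, 146 and 67.8. FOXM1 and MYBL2, transcription factors of the G2/M programme, were 106, 20.8, 69.6 and 19.3 and 102, 29.2, 97.0 and 25.0 FPKM. Of 18 partners of mitotic kinesins, 4 were down-regulated in SW1736-PTX and 8 in 8505C-PTX, with medians of -1.22 and -1.49. Against 8505C wt, 6 of these partners were down-regulated in SW1736-PTX, with a median of -1.40. The down-regulated shares of all genes are those given beside the markers. TPX2, a spindle assembly factor, ECT2 and ANLN, which drive furrow ingression, and CDCA8 of the chromosomal passenger complex passed the limit in both lines. NUMA1, which anchors dynein at spindle poles, was the 1 partner above 0 in both lines (55.9, 65.5, 38.6 and 81.2 FPKM). The part of proliferation in the mitotic kinesin result was not tested.

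**Figure D3:**
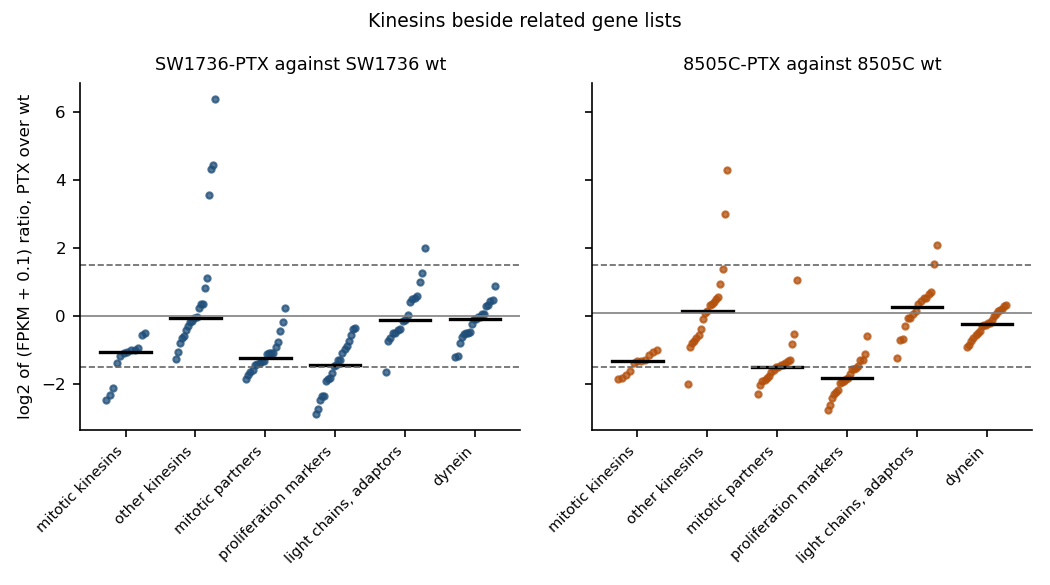
Log2 ratio of (FPKM + 0.1), PTX over wt, of the genes compared in 6 lists, 1 point per gene, with SW1736 on the left and 8505C on the right. Short black lines are list medians, dashed lines mark 1.5 and -1.5, and the thin grey line is the median of all genes (0.01 and 0.11); mitotic kinesins, their partners and proliferation markers lie mostly below it, while other kinesins, adaptors and dynein lie around it.

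Since the mitotic members lay on the same side together, promoters were read for the letters of the cell cycle homology region (TTTGAA or TTCGAA) and of the CCAAT box, both strands, elements known from promoters of G2/M genes. Promoters were 300-base windows, 250 bases before to 50 after each start, from RefSeq on GRCh38.p14, and 33 of the 39 members had at least 1. TTTGAA or TTCGAA occurred in 11 of 13 promoters of the 12 mitotic kinesins (84.6%), in 2 of 29 promoters of the other kinesins (6.90%) and in 16.4% of all 35116 promoters. The 13 include a pair of overlapping windows of KIF22 that share the same TTCGAA, and KIF4A and KIF4B, whose sequences are related. The mitotic kinesins without them were KIF2C and KIF20A. CCAAT occurred in 76.9%, 31.0% and 34.6%, and both kinds of letters together in 69.2%, 6.90% and 6.38%. KIF20A held CCAAT alone, KIF15 held TTTGAA alone, the downstream window of KIF22 held TTCGAA alone, and KIF2C held none of these letters. The 2 other kinesins with TTTGAA or TTCGAA were KIF5B and KIF24, so the promoter of KIF2A, counted with the other kinesins, held neither.

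The 150 bases before the start are shown for every member called between PTX and wt cells that has a promoter in the table, 5′ to 3′ on the gene's strand, with whole matches on either strand in capitals. On the reverse strand TTTGAA reads TTCAAA and the CCAAT box reads ATTGG, while TTCGAA reads the same on both.
KIF11 (chr10:92592980-92593129, plus strand): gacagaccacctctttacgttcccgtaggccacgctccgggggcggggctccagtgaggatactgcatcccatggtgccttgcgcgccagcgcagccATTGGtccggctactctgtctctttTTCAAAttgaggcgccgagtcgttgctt
KIF4A (chrX:70289954-70290103, plus strand): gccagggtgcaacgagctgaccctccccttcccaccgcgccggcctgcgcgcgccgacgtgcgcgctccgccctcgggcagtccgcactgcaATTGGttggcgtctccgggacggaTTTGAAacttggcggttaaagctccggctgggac
KIF20B (chr10:89701440-89701589, plus strand): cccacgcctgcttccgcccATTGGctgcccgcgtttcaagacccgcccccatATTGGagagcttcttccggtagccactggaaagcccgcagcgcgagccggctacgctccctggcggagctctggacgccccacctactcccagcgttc
KIF23 (chr15:69414199-69414348, plus strand): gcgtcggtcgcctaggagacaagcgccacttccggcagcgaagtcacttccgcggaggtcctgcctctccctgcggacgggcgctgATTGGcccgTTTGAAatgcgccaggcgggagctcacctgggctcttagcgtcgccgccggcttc
KIF24 (chr9:34329269-34329418, minus strand): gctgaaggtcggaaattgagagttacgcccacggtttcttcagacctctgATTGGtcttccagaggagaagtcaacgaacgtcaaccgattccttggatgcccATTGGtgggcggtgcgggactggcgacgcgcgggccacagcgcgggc
KIF26A (chr14:104138437-104138586, plus strand): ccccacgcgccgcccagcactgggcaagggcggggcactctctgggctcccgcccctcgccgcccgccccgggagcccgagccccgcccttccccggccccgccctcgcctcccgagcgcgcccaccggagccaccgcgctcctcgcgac
KIF5C (chr2:148875077-148875226, plus strand): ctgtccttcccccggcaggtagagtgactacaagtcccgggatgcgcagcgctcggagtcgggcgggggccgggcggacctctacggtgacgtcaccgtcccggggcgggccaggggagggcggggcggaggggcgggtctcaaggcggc
In KIF11 the 6 letters lie at bases -28 to -23 from the start with CCAAT at -53 to -49, and in KIF4A at -34 to -29 with CCAAT at -58 to -54. In KIF23 they lie at -55 to -50, next to CCAAT at -64 to -60. KIF20B holds CCAAT at -131 to -127 and -98 to -94 before its start and TTTGAA only after it, at bases 25 to 30 and 31 to 36. KIF24 likewise has TTCGAA after its start, at 2 to 7. The stretches of KIF26A and KIF5C, which were up-regulated, hold none of these letters, although the KIF5C window has CCAAT further upstream, at -222 to -218. A match is a description of the letters and says nothing of binding, and the starts are those of RefSeq, not starts measured in these cells. The deposited gene models of KIF11, KIF4A, KIF23 and KIF5C begin further upstream, inside the stretches shown. In KIF11, KIF4A and KIF23 the letters in capitals therefore lie inside the deposited gene models, not before them. KIF5C has a second RefSeq start, which is not shown.

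The members that rose were listed at 0 or at most 1.95 FPKM in the wt library against which they were called. KIF5A, a kinesin-1 heavy chain known from neurons, was 0, 1.90, 0.149 and 1.88 FPKM, the 0 being a listed value. The value in 8505C wt rests on about 37.4 reads (95% Poisson counting interval 0.105 to 0.205 FPKM), those in the PTX libraries on 636 and 582, and 3 reads would have given 0.0106 FPKM in SW1736 wt. The log2 fold changes were 4.32, 2.99 and, against 8505C wt, 3.01. Since SW1736 wt is listed at 0, the SW1736 value is set largely by the amount added, and it was 1.54 with 1 FPKM, 7.58 with 0.01 FPKM and 5.42 with TPM. Both PTX libraries lay above both wt libraries at nearly the same level. With 1 FPKM added, the 8505C value was 1.33 and KIF5A was no longer called there.

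KIF26A, an atypical kinesin without ATPase activity that binds the adaptor GRB2, was 0 (as listed), 2.08, 0.165 and 5.08 FPKM. The 8505C wt value rests on about 49.5 reads (0.122 to 0.218 FPKM) and the PTX values on 831 and 1875. The log2 fold changes were 4.45, 4.29 and 3.04, ranking 478 from the top of 14202 genes in SW1736 and 165 from the top of 13794 in 8505C. The SW1736 value again rests on a listed 0, and it was 1.62 with 1 FPKM added, 7.71 with 0.01 FPKM and 5.55 with TPM. Both PTX values were above both wt values, and they differed from each other by 1.25 on the log2 scale.

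KIF5C, the third kinesin-1 heavy chain, was 0.0117, 9.21, 1.95 and 2.82 FPKM. The value in SW1736 wt corresponds to about 3.97 reads, with a 95% counting interval of 0.00316 to 0.0300 FPKM, against about 3710 reads in SW1736-PTX. Its log2 fold change was 6.38 in SW1736, 2.18 against 8505C wt and 0.51 in 8505C, where it was not called. The SW1736 value was 3.34 with 1 FPKM added, 8.73 with 0.01 FPKM and 7.33 with TPM. The wt libraries themselves differed by 4.20 and the PTX libraries by -1.67 (8505C over SW1736), the 1 kinesin called between the PTX libraries. KIF21B, a kinesin-4 that limits microtubule growth in neurons and T cells, was 0.0726, 1.93, 0.937 and 1.44 FPKM. It was up-regulated against SW1736 wt (3.56) and not against 8505C wt (0.97) nor in 8505C (0.57). For KIF5C and KIF21B the size, and for KIF21B the call, thus depended on which wt library served as reference. The size also moved for KIF5A (4.32 to 3.01), KIF26A (4.45 to 3.04), KIF11 (-2.30 to -1.53) and KIF20B (-2.47 to -1.61). These members stayed called. KIF17, at 0.591, 0.364, 0.133 and 0.175 FPKM, was the 1 member called lower in 8505C wt than in SW1736 wt (-1.57).

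**Figure D4:**
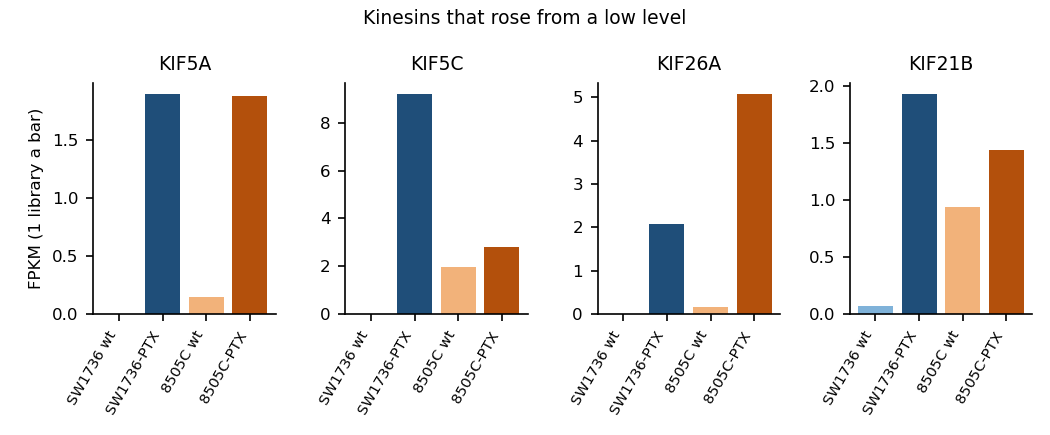
FPKM of KIF5A, KIF5C, KIF26A and KIF21B, 1 bar per library, each panel with its own linear axis from 0. KIF5A and KIF26A are listed at 0 in SW1736 wt and are low in 8505C wt, whereas KIF5C and KIF21B are already present in 8505C wt at 1.95 and 0.937.

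Within kinesin-1 the share of the heavy chains shifted. KIF5B made up nearly all of the summed KIF5A, KIF5B and KIF5C level in SW1736 wt and 96.9% in 8505C wt, against 79.8% in SW1736-PTX and 89.3% in 8505C-PTX. KIF5C held 0.0156%, 16.8%, 2.85% and 6.45%, and KIF5A 0%, 3.46%, 0.217% and 4.30%. KIF5B itself had a log2 fold change of -0.77 in each line and was not called. Among the light chains, which link kinesin-1 to cargo, KLC4 was 4.01, 16.4, 4.99 and 14.7 FPKM and was up-regulated in both lines (2.00 and 1.54, and 1.69 against 8505C wt). Its share of the 4 light chains was 4.47%, 19.5%, 5.81% and 24.3%. KLC1 and KLC2 were not called, and KLC2 was 40.6, 28.9, 36.3 and 15.5 FPKM.

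The other transport kinesins did not pass the limit. In kinesin-2, the motor of intraflagellar transport, KIF3B was 26.5, 23.9, 23.4 and 26.3 FPKM and KIF3A 4.94, 4.72, 4.93 and 3.36. KIF3C, the alternative partner of KIF3A, was 4.52, 10.0, 9.09 and 11.4, and its log2 fold change was 1.13 against SW1736 wt but 0.14 against 8505C wt. Of the kinesin-3 members, KIF1B (11.5, 8.68, 11.4 and 8.84) and KIF13A (12.4, 7.90, 7.42 and 9.55) ranged within -0.65 to 0.36 in log2 fold change. KIF13B and KIF16B, the nearest members below the upper limit in 8505C, had log2 fold changes of 1.40 and 0.94 there and -0.02 and 0.37 in SW1736. Against 8505C wt, SW1736-PTX gave 1.05 for KIF13B and 1.11 for KIF16B, so the contrast between the lines depended on the wt library. KIF1C was 0.23 against SW1736 wt but -0.59 against 8505C wt, and -0.90 in 8505C.

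KIF7, the kinesin-4 of Hedgehog signalling at the cilium tip, was 5.94, 2.83, 4.62 and 2.94 FPKM, and its relative KIF27 was 1.00, 1.86, 0.678 and 0.941. KIF21A stayed between 3.23 and 3.87 in the 4 libraries. KIF2A, the depolymerase relative of KIF2C that also acts in interphase, was 21.5, 17.5, 31.8 and 19.1. Its log2 fold changes of -0.30 (SW1736) and -0.74 (8505C) were smaller in size than those of every mitotic kinesin compared there. Against 8505C wt, SW1736-PTX gave -0.86 for KIF2A, larger in size than the mitotic KIF22 (-0.77) and KIF15 (-0.85). KIF9 lay between 1.37 and 1.77, and it overlaps its antisense gene KIF9-AS1 over 16091 bp. Whether counting used the strand is not given in the sources used here, so reads of such a pair cannot be told apart. Shorter overlaps with a gene on the opposite strand were found for KIF1C (879 bp with LOC102724009, at most 0.546 FPKM), KIF24 (144 bp with UBAP1), KIF18A (96 bp with MIR610, listed at 0), KIF20A (68 bp with CDC23), KIF7 (53 bp with TICRR) and KIF9 (8 bp with KLHL18). KIF22 lies inside spans that the tables list for duplicated names such as SLX1A and BOLA2.

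Motors that belong to the family under other names were not members and are given for comparison. KIFC1, a minus-end spindle motor that clusters extra centrosomes, was 53.4, 15.9, 49.7 and 14.4 FPKM and was down-regulated in both lines (-1.74 and -1.78, and -1.63 against 8505C wt). CENPE, the kinetochore motor, was 9.74, 7.51, 17.4 and 5.53 and passed the limit in 8505C (-1.64), with -0.37 in SW1736 and -1.20 for SW1736-PTX against 8505C wt. KIFC2 was 6.26, 18.3, 7.88 and 14.8 and passed it in SW1736 (1.53), with 0.90 in 8505C and 1.20 against 8505C wt. Of the 17 kinesin light chains and adaptors in the files, 17 were compared in SW1736 and 16 in 8505C, with 1 and 2 up-regulated, 1 and 0 down-regulated, and medians of -0.11 and 0.26. For SW1736-PTX against 8505C wt these counts were 2 and 0, with a median of 0.25. Dynein, the motor of opposite direction, had 0 of 20 subunits and cofactors called in either line (medians -0.07 and -0.24). Against 8505C wt it was 0 of 20 as well (median -0.19). Among all genes the limit was passed upward by 15.7% (SW1736), 15.0% (8505C) and 15.1% (SW1736-PTX against 8505C wt). It was passed downward by 10.2%, 5.89% and 5.23%, and the all-gene medians were 0.01, 0.11 and 0.10. These lists are short, and their difference from all genes was not tested.

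By position (hg38), KIF11 (chr10:92593068-92655395) and KIF20B (chr10:89701590-89774943) lie on the same chromosome, and KIF4A lies on chrX:70290029-70420924. The median log2 fold change of the genes within 1 Mb of KIF11 was -0.31 (SW1736) and 0.15 (8505C), of those near KIF20B -0.28 and 0.70, and of those near KIF4A -0.36 and 0.75. Near KIF26A (chr14:104138723-104180898) the medians were -0.19 and -0.21, and near KIF5C (chr2:148875223-149026759) -0.61 and 0.11. Near KIF5A (chr12:57550064-57584771) they were 0.24 and 0.70. Up-regulated neighbours numbered 12 of 42 in SW1736 and 11 of 38 in 8505C near KIF5A, 4 of 13 and 4 of 10 near KIF4A, and 4 of 24 and 5 of 24 near KIF26A, beside 15.7% and 15.0% of all genes. Near KIF11 they numbered 1 of 11 in each line, near KIF20B 0 of 9 and 2 of 9, near KIF5C 0 of 6 and 0 of 5. Down-regulated neighbours numbered 3 of 13 and 0 of 10 near KIF4A, 2 of 9 and 0 of 9 near KIF20B. Near KIF5C they numbered 2 of 6 and 0 of 5, and near KIF11 1 of 11 in each line. Near KIF5A they numbered 2 of 42 and 0 of 38, and near KIF26A 0 of 24 and 2 of 24. The share of all genes was 10.2% and 5.89%. The part of position in the kinesin values was not tested.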

How the data were processed

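One mRNA library per condition was sequenced by the authors (single-end reads of 75 bp). According to the study's methods, raw data were converted with bcl2fastq 2.20, adapters were masked with Cutadapt, low-quality bases were removed with ERNE, reads were aligned to hg38 with STAR, and gene loci were quantified with StringTie; the annotation and the strand setting are not given in the sources used here. The tables deposited by the authors give, per gene, the read coverage per base, the FPKM and the TPM. Read counts were not used here, and no count model was fitted. The depth was taken from the ratio of the deposited coverage to FPKM, and approximate reads from FPKM, that depth and GENCODE release 44 transcript lengths; intervals and 3-read floors cover counting error only.

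The FPKM of rows sharing a gene name were summed, and log2((first + 0.1)/(second + 0.1)) was computed for each pair of libraries. The limits of 0.5 FPKM and 1.5 are those of the study's methods; that either library may pass the first, and the 0.1 added, were choices made here. All genes entered each comparison. The members, the roles, the gene lists and the promoter letters were chosen with earlier results of these data known, so they are no independent support. Members named with values were those called in a line, all mitotic kinesins, the 5 of highest mean FPKM, KIF5A to KIF5C and those nearest the limit; the rest were added so that every member is accounted for. Promoters came from the RefSeq table on GRCh38.p14, where KIF13B, KIF19, KIF21B, KIF26B, KIF27 and KIF5A were not matched. Alternatives changed the amount added, the minimum, the unit, the centring, the handling of repeated names, the limit and the wt reference. Some cell type markers are not reported here. The calling step was tested on simulated data. That simulation used only genes well detected in SW1736 wt, large changes and counting error. It therefore says nothing of members with little or no RNA in wt cells, nor of the spread between cultures. Scripts ran under Python 3.11.15 (pandas 2.3.3, NumPy 2.4.6, matplotlib 3.10.9).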

Additional observations from a re-analysis of the deposited data

Results flagged for a closer look

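FEZ1, a kinesin-1 adaptor that is no member of the motor family, was called in opposite directions in the lines, with a log2 fold change of -1.64 in SW1736 and 2.08 in 8505C (14.2, 4.48, 2.23 and 9.74 FPKM in SW1736 wt, SW1736-PTX, 8505C wt and 8505C-PTX). Among all 13304 genes compared in both lines, 144 were called in opposite directions. Against 8505C wt, the library labelled SW1736-PTX gave 0.98 for FEZ1. The difference between the lines was not tested, since each condition has 1 library.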

How the results depend on the processing

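No paired analysis was possible within a line because each group has 1 library, and for the same reason no replicate could be left out. A fit over both lines with the line as a block would leave 1 residual degree of freedom and was not run, since the library labelled SW1736-PTX stood apart from SW1736 wt. The 4 medians of the family and of the mitotic kinesins kept their direction under every alternative run. Counts moved as follows. The number of kinesins up-regulated was 0 in SW1736-PTX and 0 in 8505C-PTX when more than 0.5 FPKM was asked for in both libraries, since the members that rose were below it in wt cells, and 1 in 8505C-PTX with 1 FPKM added. Down-regulated kinesins numbered 10 in SW1736-PTX and 11 in 8505C-PTX with a limit of 1, and 0 in 8505C-PTX with a limit of 2. The other 70 values of counts and medians stayed within 1.5-fold on the linear scale. Of the values for single kinesins, 354 stayed within 1.5-fold, 21 moved further with no change of call, and 4 lost their call, which were KIF21B in SW1736 (1.45 with 1 FPKM added, 0.97 against 8505C wt), KIF24 in 8505C (-1.47) and KIF5A in 8505C (1.33), both with 1 FPKM added. Calls were gained for KIF24 in SW1736-PTX against 8505C wt (-1.62) and for KIF4B in SW1736 with 0.01 FPKM added (-1.76) or with TPM (-1.63). With TPM KIF4B was also called in 8505C (-1.73), and KIF12 was called in SW1736 with no minimum (2.17) or with TPM (3.12). Coverage divided by aligned bases in place of FPKM, an alternative chosen after seeing the data, changed no call. The spread between cultures cannot be known from these libraries, and depth limits the low values of KIF5A, KIF5C and KIF26A in wt cells.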
